A study of Mus musculus with 4 samples.

Results

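The genes described here are 48 members of the Wnt signalling pathway in mouse, covering ligands, receptors, inhibitors, signal transducers and target genes. Members were taken by gene name among the non-control probes of the array, which gave 87 probes among 56605, and 48 gene names among 37074. RNA came from GC-1, a mouse line that was immortalised from type B spermatogonia, the dividing germ cells that precede meiosis. The study asked what forced expression of Hdac6, a cytoplasmic deacetylase that acts on tubulin, does to the expressed genes of this line. Its title names Profilin 2 and germ cell migration as the interest.

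There were 2 groups of 2 one-colour Agilent arrays. The Hdac6 vector group was transfected with a pCMV plasmid that carries murine HDAC6 with a myc/DDK tag behind the CMV promoter. The empty vector group received the plasmid without the gene, so both groups went through transfection. RNA was taken 48 h after transfection in both groups. The labels do not say whether the numbered arrays came from separate cultures, so every p-value measures only the spread between these arrays, which may be technical, and 2 arrays a group limit the precision. All values are of the whole culture, where fewer cells of a type and less RNA per cell cannot be told apart.

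Wnt ligands are secreted, lipid-modified proteins that bind Frizzled receptors together with Lrp5 or Lrp6, or with Ror and Ryk receptors. In the canonical branch, Dishevelled proteins then restrain a destruction complex of Axin, Apc and Gsk3, beta-catenin builds up, and TCF/LEF factors switch on targets that include inhibitors of the pathway itself. In the testis, ligands from Sertoli cells are known to act on spermatogonial survival and division.

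Most of the pathway was measurable in GC-1 cells, and no member passed the test between the vectors. A probe was well above background on all 4 arrays for 37 of the 48 members. Of the 39 members that were tested, 0 had an adjusted p under 0.05 by limma, adjusted by Benjamini-Hochberg over every tested probe, where 0.00851% of all 23492 tested genes and 0.0114% of all 35205 tested probes were called. At an unadjusted p under 0.05 the count of members was also 0, against 1.84% of all tested genes. All 14 alternatives that were run, which include other scalings, filters, blocks and arrays left out, gave 0 members changed as well.

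The arrays themselves did not separate by vector. Across the 32593 probes detected on every array, the second empty vector array and the first Hdac6 vector array differed by at least 2-fold at 0.604% of probes, while every other pair differed that far at 3.82% to 6.85%. The Hdac6 probe stood at 3.31 and 2.83 in the empty vector group against 2.62 and 3.24 in the Hdac6 vector group, a ratio of 0.909 with overlapping groups and an adjusted p of 1.00 by limma. The sources used here do not say whether that probe can read the plasmid transcript, so it does not check the labels. Of 14 spermatogonial markers, 8 were well above background on all 4 arrays, among them Sall4, Dmrt1, Nanos3 and Uchl1, while the germ cell gene Dazl and the spermatogonial receptor Kit were on 0 arrays. Markers of other cells were measured too, 5 of 8 for Sertoli cells with Wt1 among them, 4 of 4 for peritubular myoid cells and 4 of 5 for macrophages. The counts were 2 of 4 for epithelia and 6 of 7 for fibroblasts and mesenchyme. Fewer were measured for endothelia, 1 of 3, and for Leydig cells, 1 of the 4 with a probe. None of the 36 marker genes tested passed the adjusted p by limma, and 2 had an unadjusted p under 0.05, against 1.84% of all tested genes. These were the macrophage gene Cd68 at a ratio of 0.530 and the smooth muscle actin Acta2 at a ratio of 1.48. The part of these cell type markers in the Wnt values was not tested.

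Each probe is a 60-base oligo, and 6 of the 87 member probes lie across a stretch of genome longer than themselves, as probes over an exon junction do. The 3 printed here belong to the ligand Wnt5a, the Dishevelled gene Dvl3 and the kinase Gsk3b. Like the junction probe of Apc, which is not printed, each has 1 forward reading frame without a stop codon. Every tested probe of these 3 genes lay above 0 between the vectors when arrays were centred on their 75th percentile. The capitals mark the only forward reading frame without a stop codon, and the letters run 5′ to 3′ on the plus strand. In the array's coordinates on mm9 the probes span 3963 bases at chr14:29331746-29335708, 592 bases at chr16:20526468-20527059 and 3646 bases at chr16:38187987-38191632.
Wnt5a: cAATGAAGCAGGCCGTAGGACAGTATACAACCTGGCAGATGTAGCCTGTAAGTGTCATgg
Dvl3: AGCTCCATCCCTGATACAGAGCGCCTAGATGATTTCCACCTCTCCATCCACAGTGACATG
Gsk3b: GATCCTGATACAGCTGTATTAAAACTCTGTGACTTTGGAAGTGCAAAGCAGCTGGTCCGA

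A level below is the log2 signal of a probe minus the 75th percentile of its array, so that 0 is a signal at that percentile. Levels of different probes are not set against each other, since each probe binds with its own strength. A gene is given by its brightest tested probe, called its main probe.

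**Figure D1:**
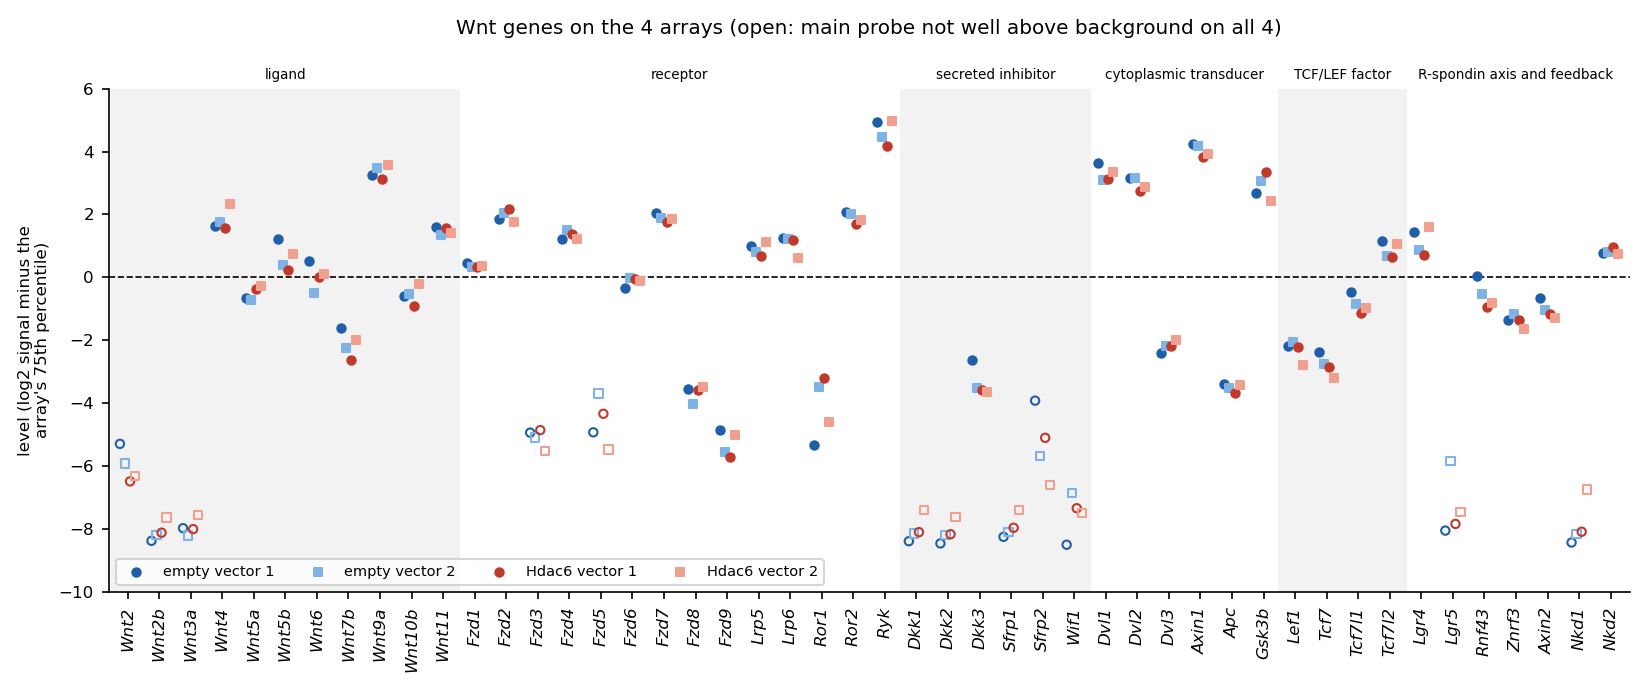
Level of the main probe of each of the 48 Wnt genes on the 4 arrays, as log2 signal minus the 75th percentile of the array, with genes grouped by role. Filled points are genes whose main probe was well above background on all 4 arrays (36 genes), open points are the other genes, and the blue empty vector and red Hdac6 vector points overlap for 26 of the 39 tested genes.

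The ligands measured in GC-1 cells were a mixture of canonical and non-canonical ones. Of 11 ligand genes, 8 were well above background on all 4 arrays. Wnt2b and Wnt3a, the latter a canonical ligand, were on 0 arrays, and Wnt2 was on 1 array. Wnt4, a ligand of gonad development, stood at 1.64 and 1.76 in the empty vector group against 1.57 and 2.32 in the Hdac6 vector group. Its second Hdac6 vector array was the high one, and the groups overlapped. Wnt9a stood at 3.25 and 3.47 in the empty vector group against 3.13 and 3.56 in the Hdac6 vector group. Wnt11, which directs cell movements in the embryo, gave 1.61 and 1.35 against 1.57 and 1.41. The arrays of both groups were interleaved for these 2 ligands.

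Wnt5a, the ligand of the Ror receptors and of the non-canonical branch, had separate groups. Its main probe at chr14:29336664-29336723 on the plus strand of mm9 read -0.66 and -0.71 in the empty vector group against -0.38 and -0.28 in the Hdac6 vector group. Both Hdac6 vector arrays were above both empty vector arrays. The ratio of Hdac6 vector to empty vector was 1.28, with a 95% interval of 0.854 to 1.91 and an adjusted p of 1.00 by limma. The junction probe printed above read -3.57 and -4.09 in the empty vector group against -3.65 and -3.51 in the Hdac6 vector group, and there the groups overlapped. The third probe overlapped too, and the 3 log2 fold changes ran from 0.09 to 0.35.

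Wnt7b, a canonical ligand, had the lowest log2 fold change among ligands. It stood at -1.61 and -2.24 in the empty vector group against -2.61 and -1.99 in the Hdac6 vector group, at chr15:85365877-85365935 on the minus strand. The groups overlapped, and its ratio was 0.772 with an interval of 0.443 to 1.34. Wnt5b read 1.21 and 0.39 in the empty vector group against 0.23 and 0.75 in the Hdac6 vector group, so that the first empty vector array stood above the rest. Wnt6, a ligand that Sertoli cells make, stood at 0.52 and -0.49 in the empty vector group against 0.01 and 0.09 in the Hdac6 vector group. For Wnt6 both Hdac6 vector arrays lay between the empty vector arrays. Wnt10b gave -0.59 and -0.53 in the empty vector group against -0.91 and -0.22 in the Hdac6 vector group, which enclosed the empty vector values. The other Wnt10b probe had separate groups with the Hdac6 vector higher, at a ratio of 1.49 with an interval of 0.843 to 2.62. Over the 8 tested ligands, 4 log2 fold changes were above 0 and 4 below, with a median of 0.0033.

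The ligand genes also hold the promoters in which a TCF/LEF motif was found. The motif CTTTGAT, or ATCAAAG on the other strand, occurred in 2 of 43 RefSeq promoter windows of 34 member genes, a share of 4.65%, and in 3.73% of all 32851 windows of the same 300 bases. These windows run from 250 bases before a gene start to 50 after it, in GRCm38.p6. The 100 bases before each start are printed with the match in capitals, for Wnt5b on the minus strand at chr6:119449387-119449486 and for Wnt11 on the plus strand at chr7:98835012-98835111. The match begins 71 bases before the start in Wnt5b and 51 bases before it in Wnt11. A match is a description of the letters and does not show binding.
Wnt5b: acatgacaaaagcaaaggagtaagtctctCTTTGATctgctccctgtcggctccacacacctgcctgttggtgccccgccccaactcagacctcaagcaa
Wnt11: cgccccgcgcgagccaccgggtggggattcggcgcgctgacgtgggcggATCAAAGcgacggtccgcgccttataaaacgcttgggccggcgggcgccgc

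Receptors were well covered. All 14 had a main probe well above background on at least 3 arrays, and 13 of the 14 genes had a probe above it on all 4. Among the Frizzled receptors, which bind the ligand, Fzd1 stood at 0.44 and 0.32 in the empty vector group against 0.33 and 0.37 in the Hdac6 vector group. Fzd2 stood at 1.85 and 2.05 in the empty vector group against 2.16 and 1.77 in the Hdac6 vector group. Fzd4 gave 1.23 and 1.51 against 1.38 and 1.23. None of these 3 had separate groups. Fzd7 read 2.06 and 1.88 in the empty vector group against 1.75 and 1.87 in the Hdac6 vector group, at chr1:59543192-59543251 on the plus strand. Its groups did not overlap, by a gap of 0.013 between the closest arrays, and its ratio was 0.895 with an interval of 0.622 to 1.29.

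The groups of the other Frizzled genes also overlapped. Fzd6, a receptor of planar polarity, read -0.34 and -0.01 in the empty vector group against -0.04 and -0.11 in the Hdac6 vector group. Fzd8 read -3.53 and -4.03 against -3.56 and -3.49, and Fzd9 read -4.86 and -5.56 against -5.70 and -5.00. For each of these 3 genes, arrays of the groups were interleaved. The main probe of Fzd3, a receptor of axon guidance, was well above background on 3 arrays, with -4.93 and -5.09 in the empty vector group against -4.85 and -5.52 in the Hdac6 vector group. Fzd5 was likewise on 3 arrays, with -4.92 and -3.69 in the empty vector group against -4.33 and -5.47 in the Hdac6 vector group, at chr1:64779479-64779538 on the minus strand. The groups of Fzd5 overlapped, and its ratio of 0.661 had an interval of 0.295 to 1.48. The other Fzd5 probe was on all 4 arrays at -4.66 and -4.81 against -4.72 and -4.37, with a log2 fold change of 0.18 in place of -0.60.

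The co-receptors of the canonical branch were Lrp5 and Lrp6. Lrp5 stood at 0.99 and 0.81 in the empty vector group against 0.69 and 1.13 in the Hdac6 vector group. Lrp6 gave 1.24 and 1.22 in the empty vector group against 1.20 and 0.62 in the Hdac6 vector group, at chr6:134400440-134400499 on the minus strand. For Lrp6 the second Hdac6 vector array was low and the first was 0.013 below the nearer empty vector array, so the groups just failed to overlap. The ratio of Lrp6 was 0.803 with an interval of 0.526 to 1.23, while its other probe had a log2 fold change of 0.24.

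Receptors of the non-canonical branch were Ror1, Ror2 and Ryk. Ror2, the main receptor of Wnt5a, read 2.07 and 2.02 in the empty vector group against 1.71 and 1.83 in the Hdac6 vector group, at chr13:53204795-53204854 on the minus strand. Both Hdac6 vector arrays were below both empty vector arrays, and the ratio was 0.828 with an interval of 0.578 to 1.19. Ror1 read -5.33 and -3.47 in the empty vector group against -3.21 and -4.58 in the Hdac6 vector group, at chr4:100115077-100115136 on the plus strand. Its empty vector arrays were 1.86 apart on the log2 scale, and its ratio of 1.42 had an interval of 0.528 to 3.82. The second Ror1 probe had a log2 fold change of -0.26 in place of 0.51. Ryk read 4.93 and 4.47 against 4.18 and 4.98, with interleaved groups. Over the 14 receptors, 5 log2 fold changes were above 0 and 9 below, with a median of -0.09.

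Most of the 6 secreted inhibitors among the members were not measurable. These proteins bind ligands or co-receptors outside the cell. The probes of Dkk1, Dkk2, Sfrp1 and Wif1 were well above background on 0 arrays, which leaves their levels unknown and not shown to be absent. Of 11 further secreted inhibitors in the wider pathway list given below, 6 were well above background on all 4 arrays. Dkk3, a member of the Dickkopf family, read -2.61 and -3.51 in the empty vector group against -3.59 and -3.65 in the Hdac6 vector group, at chr7:119259556-119259615 on the minus strand. The first empty vector array of Dkk3 stood 0.89 above the second, and the groups did not overlap. Its ratio was 0.678 with an interval of 0.377 to 1.22, and its other 2 probes were on 0 arrays. Sfrp2, a Frizzled-related protein that binds ligands, was on 3 arrays at -3.92 and -5.69 in the empty vector group against -5.10 and -6.60 in the Hdac6 vector group, at chr3:83577864-83577923 on the plus strand. Its groups overlapped, and its ratio of 0.483, with an interval of 0.176 to 1.32, was the only one at or beyond 2-fold among the 39 tested members. That value rested on single arrays and on the processing, since the log2 fold change of Sfrp2 was -1.05 but -0.094 with normexp, -0.17 without the first empty vector array, -0.30 without the second Hdac6 vector array, -1.80 without the first Hdac6 vector array and -1.93 without the second empty vector array.

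All 6 transducers inside the cell were well above background on all 4 arrays. Of the Dishevelled genes, Dvl1 stood at 3.64 and 3.11 in the empty vector group against 3.13 and 3.35 in the Hdac6 vector group. Dvl2 stood at 3.17 and 3.15 in the empty vector group against 2.74 and 2.86 in the Hdac6 vector group, at chr11:69823536-69823595 on the plus strand. Both Hdac6 vector arrays of Dvl2 were below both empty vector arrays, and its ratio was 0.779 with an interval of 0.547 to 1.11. Dvl3 read -2.41 and -2.19 in the empty vector group against -2.19 and -1.99 in the Hdac6 vector group, at chr16:20531470-20531529 on the plus strand. Its groups met at the second empty vector and first Hdac6 vector arrays, and its ratio was 1.16 with an interval of 0.726 to 1.84. The junction probe of Dvl3 had a log2 fold change of 0.27 and groups that did not overlap.

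In the destruction complex, Axin1, its scaffold, read 4.25 and 4.19 in the empty vector group against 3.81 and 3.93 in the Hdac6 vector group, at chr17:26332666-26332725 on the plus strand. The groups of Axin1 did not overlap, and its ratio was 0.786 with an interval of 0.551 to 1.12. A second Axin1 probe, upstream in the same gene, read 1.50 and 1.50 against 1.54 and 1.54, a log2 fold change of 0.04. Apc, the tumour suppressor that holds beta-catenin in the complex, read -3.39 and -3.50 against -3.67 and -3.41. Gsk3b, the kinase that marks beta-catenin for degradation, read 2.69 and 3.05 in the empty vector group against 3.37 and 2.42 in the Hdac6 vector group. The Hdac6 vector arrays of Gsk3b enclosed the empty vector arrays, and its 4 probes had log2 fold changes between 0.02 and 0.26. Over the 6 transducers the median log2 fold change was -0.12.

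All 4 TCF/LEF factors, the DNA-binding end of the canonical branch, were well above background on all 4 arrays. Lef1 read -2.18 and -2.06 in the empty vector group against -2.20 and -2.78 in the Hdac6 vector group, at chr3:130926200-130926259 on the plus strand. Its groups were 0.024 apart at the closest arrays, and its ratio was 0.773 with an interval of 0.467 to 1.28. The other Lef1 probes were on 0 arrays. Tcf7 read -2.37 and -2.76 in the empty vector group against -2.86 and -3.18 in the Hdac6 vector group, at chr11:52066008-52066067 on the minus strand. The groups of Tcf7 did not overlap, and its ratio was 0.731 with an interval of 0.440 to 1.21. Its other tested probes had log2 fold changes of -0.17 and 0.04.

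Tcf7l1, which mostly represses targets, read -0.46 and -0.84 in the empty vector group against -1.12 and -0.98 in the Hdac6 vector group, at chr6:72576377-72576436 on the minus strand. Its groups did not overlap, and its ratio was 0.760 with an interval of 0.491 to 1.18. Tcf7l2 read 1.15 and 0.69 against 0.66 and 1.07, with overlapping groups and a log2 fold change of -0.06. Its other tested probes had log2 fold changes of 0.05, 0.60 and 0.33. The groups of the last did not overlap, with the Hdac6 vector higher. The 4 main probes had a median log2 fold change of -0.38, and all 4 were below 0 under the 75th percentile, median, quantile and normexp processing, while Tcf7 at 0.08 and Tcf7l2 at 0.59 were above 0 in the authors' value table. None of the 4 passed the limma test, and the adjusted p of each was 1.00.

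The last role holds the R-spondin receptors, the ligases they restrain, and targets that feed back on the pathway. Lgr5, an R-spondin receptor and stem cell marker, and Nkd1, a target that binds Dishevelled, were on 0 arrays. Lgr4, the other R-spondin receptor among the members, read 1.44 and 0.86 in the empty vector group against 0.72 and 1.59 in the Hdac6 vector group. Rnf43, a ligase that removes Frizzled from the surface, read 0.04 and -0.52 in the empty vector group against -0.95 and -0.82 in the Hdac6 vector group, at chr11:87548944-87549003 on the plus strand. Both Hdac6 vector arrays of Rnf43 were below both empty vector arrays. Its ratio was 0.643 with an interval of 0.408 to 1.01, an unadjusted p of 0.0549 and an adjusted p of 1.00 by limma. That unadjusted p was the smallest among the members. The other Rnf43 probe was on 0 arrays.

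Znrf3, the partner ligase, read -1.35 and -1.17 in the empty vector group against -1.36 and -1.66 in the Hdac6 vector group. Its groups were 0.0046 apart at the closest arrays, its ratio was 0.845 with an interval of 0.541 to 1.32, and its 3 probes had log2 fold changes from -0.35 to -0.24. Axin2, a direct target of beta-catenin and a common readout of the canonical branch, read -0.66 and -1.04 in the empty vector group against -1.15 and -1.27 in the Hdac6 vector group, at chr11:108811980-108812039 on the plus strand. The groups of Axin2 did not overlap, and its ratio was 0.778 with an interval of 0.501 to 1.21. Nkd2 read 0.79 and 0.80 against 0.97 and 0.75, with overlapping groups and a ratio of 1.05 with an interval of 0.718 to 1.53. Over the 5 tested genes of this role the median log2 fold change was -0.24.

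**Figure D2:**
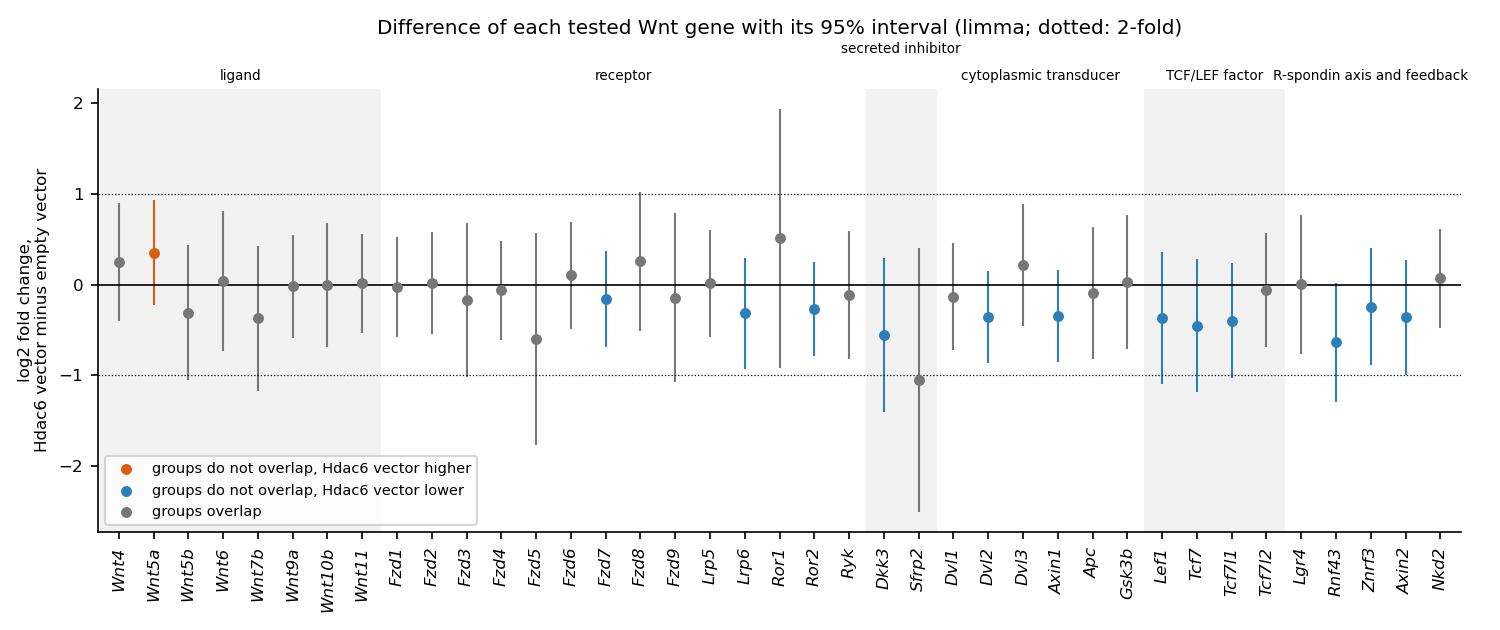
Log2 fold change of the Hdac6 vector against the empty vector for the main probe of each of the 39 tested Wnt genes, with 95% intervals from limma and dotted lines at 2-fold. The interval of every gene includes 0, 26 of the 39 lie wholly within 2-fold either way, and colour marks the 1 gene with separate groups and higher values (Wnt5a) and the 12 with separate groups and lower values.

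Over all 39 tested members, 13 log2 fold changes were above 0 and 26 below, which is 66.7% below 0 against 49.3% of all tested genes. With each array centred on its median in place of its 75th percentile, 33 of the 39 were below 0, or 84.6% against 63.6% of all tested genes, while the median of all tested probes moved from 0.02 to -0.07. The median over members was -0.11, against 0.0041 over all tested genes, and ran from -0.25 to -0.07 as each array was left out. The groups did not overlap for 1 member with higher and 12 with lower values, or 2.56% and 30.8%, where 12.3% and 12.9% of all tested genes did so. With median centring the lower count was 13 members, or 33.3%, and the share of all tested genes 20.5%. All these counts are of main probes. Most of the other tested probes of the members had log2 fold changes above 0 with 75th percentile centring. That did not hold with median centring, which lowered every log2 fold change by the same amount. Separate groups with higher values were seen for other probes of Wnt10b, Dvl3, Axin1 and Tcf7l2, and with lower values for another probe of Znrf3. For the Axin1 probe the log2 fold change was only 0.04. The share among the other probes of all genes was not counted, so these are listed as values only. The counts describe the members and are not a test of the list.

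The intervals show what the 4 arrays could resolve. Of the 39 members, 37 had an interval that left out a 2-fold higher level with the Hdac6 vector and 28 had one that left out a 2-fold lower level. The median interval reached 0.65 on the log2 scale to either side. The exceptions for a higher level were Ror1 and Fzd8.

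Differences between arrays of the same vector were similar in size to those between vectors. The median difference between the empty vector arrays was 0.28 in log2 level and that between the Hdac6 vector arrays 0.30. The median size of the log2 fold change, which is between means of 2 arrays, was 0.21. Between single arrays, over the 36 members with main probes on all 4, medians were 0.27 and 0.24 within a vector and 0.17 to 0.34 across vectors. For 7 of the 39 members the difference between groups was larger than the difference inside either group, a share of 17.9% where 14.5% of all tested genes did so, and these were Wnt5a, Ror2, Dvl2, Axin1, Tcf7, Tcf7l1 and Rnf43. The empty vector arrays were at least 2-fold apart for 4 members and the Hdac6 vector arrays for 3.

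**Figure D3:**
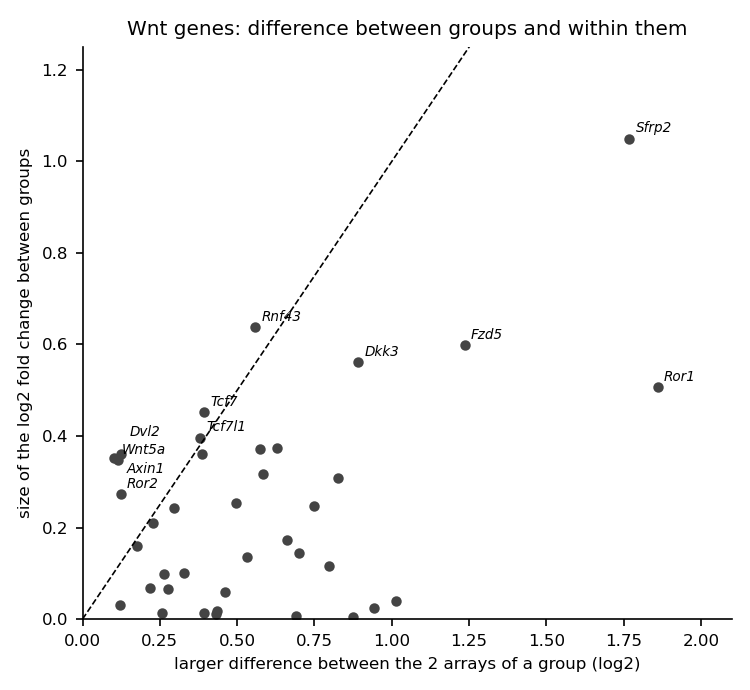
Size of the log2 fold change between vectors against the larger of the differences between the 2 arrays of a vector, for the 39 tested Wnt genes, with equality as a dashed line. The 7 genes above the line include Wnt5a and Rnf43, while Ror1, Fzd5 and Sfrp2 lie far to the right, where arrays of the same vector differed most.

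The extreme values of the members were not spread evenly over the arrays. Among the 36 members whose main probe was on all 4 arrays, the first empty vector array held the highest value for 19, or 52.8%, where it did so for 28.3% of 21877 such genes in all. It held the lowest value for 3, or 8.33%, against 28.3% of those genes. The first Hdac6 vector array held the lowest value for 17, or 47.2%, against 38.5% of those genes. The second Hdac6 vector array held the lowest value for 10, or 27.8%, against 15.2%, and the highest for 9, or 25%, against 41.2%. The second empty vector and first Hdac6 vector arrays, which were closest over all probes, had a median difference of 0.17 over these members and differed by at least 2-fold for 0 of them. For the other pairs of arrays that median lay between 0.24 and 0.34. The part of these array differences in the members' values was not tested.

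Probes of the same gene often differed in sign. Of 28 members with more than 1 probe, 20 had more than 1 tested, and the log2 fold changes of all tested probes had the same sign for 6 of these 20. They were above 0 for Wnt5a, Lrp5, Dvl3 and Gsk3b and below 0 for Wnt7b and Znrf3, but under median, quantile and normexp processing alike this held only for Dvl3 and Znrf3. With median centring the probes were all above 0 for 1 gene and all below 0 for 9. For the other 14 genes, among them Fzd5, Lrp6, Ror1, Dvl2, Axin1 and Tcf7, at least 1 probe lay on each side of 0. Fzd8, Dkk3, Apc, Lef1, Rnf43, Axin2 and Nkd2 had only 1 tested probe, and their other probes were well above background on 0 arrays.

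**Figure D4:**
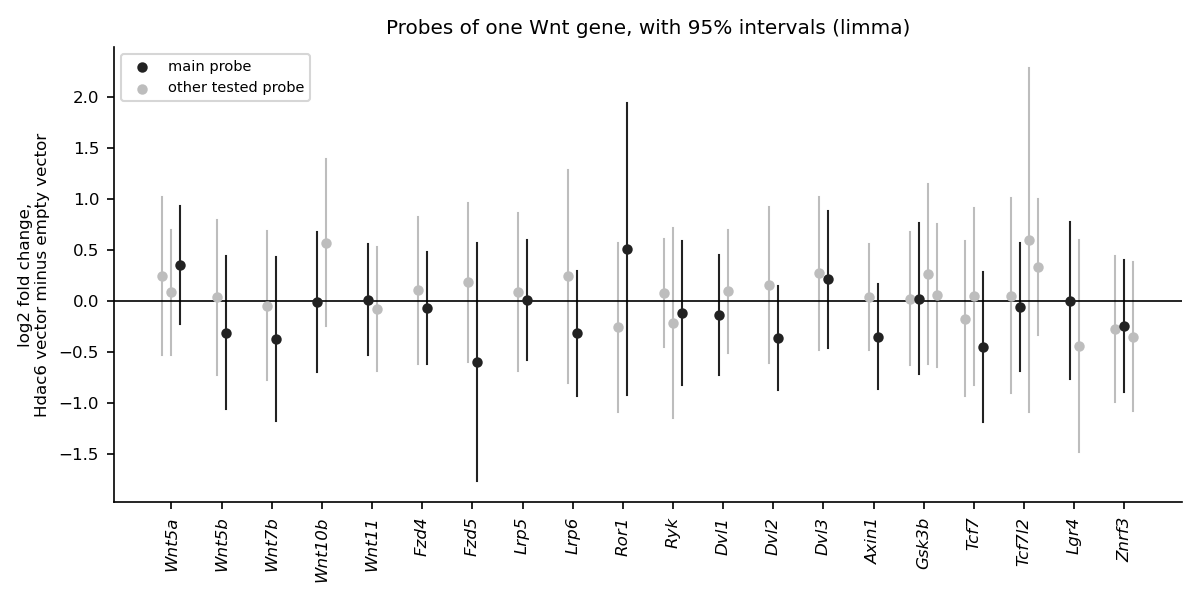
Log2 fold change of the Hdac6 vector against the empty vector for every tested probe of the 20 Wnt genes with more than 1 tested probe, with 95% intervals from limma and the main probe in black. In 14 of the 20 genes the probes lie on both sides of 0, and every interval includes 0.

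The rest of the pathway was given by a list of 98 further genes, of which 77 had a probe on all 4 arrays, 13 on 0 arrays, and 80 were tested. By limma, 0 of the 80 had an adjusted p under 0.05, where 0.00851% of all tested genes were called. The 14 alternatives also gave 0. An unadjusted p under 0.05 by limma was found for 5 of the 80, against 1.84% of all tested genes. Porcn, which attaches the lipid to ligands, Wls, which carries them to the surface, and Notum, which removes the lipid, were all well above background on all 4 arrays. Beta-catenin itself, Ctnnb1, read 4.24 and 4.53 in the empty vector group against 4.28 and 4.38 in the Hdac6 vector group, with values of the groups interleaved.

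The 3 genes of this list with the smallest unadjusted p were Celsr3, Fosl1 and Wnt10a. Celsr3, a planar polarity cadherin, read -4.47 and -4.56 in the empty vector group against -5.52 and -5.32 in the Hdac6 vector group, a log2 fold change of -0.91 with an interval of -1.68 to -0.14. Fosl1, an AP-1 factor and target of the pathway, read -0.20 and -0.11 against -0.79 and -0.86, a log2 fold change of -0.67 with an interval of -1.25 to -0.09. Wnt10a, a canonical ligand, read 1.13 and 1.56 against 1.79 and 2.37, a log2 fold change of 0.73 with an interval of 0.09 to 1.37. The groups of all 3 were separate, and the adjusted p of each was 1.00 by limma. Over the 80 genes, 53 log2 fold changes were below 0 with a median of -0.09, or 66.25% against 49.3% of all tested genes. Without the first Hdac6 vector array 33 were below 0 with a median of 0.017, or 41.25% against 41.5% of all tested probes.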

How the data were processed

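Each array was read by the authors with Agilent Feature Extraction 11.5.1.1, per the file headers. The deposited spot values are processed intensity (background-corrected brightness) and a flag for being well above background. The authors' deposited value table is on a log2 scale, and differs from the levels used here by a constant per array for genes with 1 probe, per the values. The array's design names the genes, and its coordinates are mm9.

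Here, spots that Feature Extraction marked as outliers were left out (15 probes left with no spot on an array were not tested), spots of a probe were averaged (10 spots for 300 probes), and log2 intensity was centred on each array's 75th percentile. Tested probes were those well above background on both arrays of 1 group or more. R 4.3.3 and limma 3.58.1 (lmFit, eBayes with trend) gave two-sided p-values, adjusted by Benjamini-Hochberg over 35205 probes, and 95% intervals, on 2 residual degrees of freedom plus 7.07 from the spread shared across probes. The fitting was tested on simulated data. A gene is given by its brightest tested probe by mean.

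The members and lists were chosen with earlier results of these data known. Values on every array are given for members detected on all 4. Ratios with intervals are given for members with adjusted p under 0.05 and for members with separate groups. They are also given for the largest rise and the largest fall of each role, where a role had any. Of other pathway genes the 3 with the smallest p are named. Porcn, Wls, Notum, Ctnnb1, values of other members and single markers were chosen after their values were seen. Alternatives were normexp background correction (offset 50), median scaling, quantile normalization, other filters on dim probes, no trend, replicate blocks, the mean over probes, the authors' value table, and leaving out each array.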

Additional observations from a re-analysis of the deposited data

How the results depend on the processing

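The count of changed Wnt members (0) and of changed other pathway genes (0) was the same under all 14 alternatives by limma. Over all probes, 4 changed, and the count was 28 with normexp, 0 with median scaling, 2 with quantile normalization, 2 without the trend, 19 with the authors' value table, and 0 to 302 as each array was left out (12 without empty vector 1, 302 without empty vector 2, 0 without either Hdac6 vector array, where the lone array of a group is taken to vary like the others). With the replicate number as a block the count was 22, and no member was called. Same-numbered arrays deviated in opposite directions (correlation -0.36 over 35205 probes), and the crossed pairing, chosen after seeing the data, called 15 probes and 0 members. The members' median log2 fold change was -0.21 with median scaling and -0.25 to -0.067 as each array was left out. Signs turned for Fzd5 (0.18 when detection on all 4 arrays was required), Tcf7 (0.077 in the value table) and Nkd2 (-0.024 with median scaling, -0.014 in the value table). As each array was left out, Ror1 ran from -0.42 to 1.44, Fzd5 from -1.22 to 0.020 and Nkd2 from -0.041 to 0.18. The cause was not tested. The other 15 of 19 members given with a ratio kept their sign in the alternatives that gave them a value, which for Sfrp2 leave out detection on all 4 arrays. Signal over background limits the 9 members that could not be tested.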

Other observations

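Among members with more than 1 probe, 4 had a number of probes well above background that differed between arrays. For these 4, chosen after their values were seen, the authors' value table and the main probe gave different comparisons. On an array where a member had such probes, its table value was the mean level over them plus a constant of that array. Ryk is listed at 0.93 and 0.75 for the empty vector and at 3.60 and 0.85 for the Hdac6 vector, from 3, 3, 2 and 3 probes, so its table difference is 1.39 where its main probe gave -0.11. Tcf7l2 has a table difference of 0.59, where its main probe gave -0.06 and the mean over its tested probes 0.23, from 4, 4, 4 and 3 probes. Tcf7 has 0.08 where its main probe gave -0.45, from 3, 3, 3 and 2 probes. Fzd5 has -0.01 where its main probe gave -0.60, from 2, 2, 2 and 1 probes. The table and the main probe also differed for members with the same probes well above background on every array, such as Ror1 with 0.05 against 0.51, Lgr4 with -0.30 against 0.0045 and Wnt10b with 0.20 against -0.01.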
